A study of Mus musculus with 100 samples.

Results

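Inguinal fat, the subcutaneous depot of the mouse groin, was profiled by RNA sequencing in animals with and without the gene Gps2 in fat cells, in the arm of the study that the submitters describe as beta-adrenergic stimulation. The comparison rested on 32 of the 100 samples of the series, 16 labelled knockout and 16 labelled wild type. They were chosen by table and title, with no use of measured values. The 4 repeat libraries that carry the same replicate number were averaged, which left 4 knockout and 4 wild type replicates. All came from mice of 8 weeks, and the strain entry Adipoq-Cre-Gps2flox/flox stood on the samples of both genotypes, so the genotype was taken from the titles alone. The Adipoq promoter drives Cre recombinase in adipocytes, so vessel, immune and stromal cells of the tissue keep the gene. The sources used here name neither the agent nor its dose or duration, no unstimulated inguinal group was analysed here, and the labels do not say that the replicates were separate animals. The p-values below therefore measure only the spread between these replicates, which may be technical.

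GPS2 is a small subunit of the NCoR corepressor complex, which carries the histone deacetylase HDAC3 and the TBL1 proteins and keeps nuclear receptor targets silent. It also inhibits the ubiquitin-conjugating enzyme UBC13 and has been described as a protein that leaves mitochondria for the nucleus to act on nuclear genes of mitochondrial proteins. Beta-adrenergic agonists raise cAMP in fat cells, start lipolysis and, in inguinal fat, bring out beige adipocytes that burn fuel through the uncoupling protein UCP1.

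Recovered read totals lay between 42707444 and 58456260 per replicate. The wild type 4 total covers 3 of its 4 libraries, because in the other 1 read was worth 0.990, too close to 1 for the size factor to be told from none. Repeat libraries of a replicate differed by little more than counting noise (chi-square per degree of freedom of 1.05 to 1.06), so they count as 1 sample. The first principal component, 34.8% of the variance, set knockout 1, wild type 3 and wild type 4 (-28.0, -29.9 and -29.5) apart from the other 5 replicates (9.68 to 24.7), which is not the split by genotype. On the second, 22.6% of the variance, all 4 knockout replicates were negative (-38.7 to -3.66) and all 4 wild type replicates positive (7.10 to 26.4). Skeletal muscle genes were high in 1 replicate of each genotype. Their mean log2 level was 7.67 in wild type 2 and 7.67 in knockout 3, and 2.45 to 4.24 in the other 6. Ckm, the creatine kinase of muscle, was at 528 normalised reads in wild type 2 and at 435 in knockout 3, and between 0 and 23.1 elsewhere. Adipoq, the adipocyte hormone adiponectin, lay at 20024 to 41784 normalised reads. The glandular epithelial genes Krt8 and Epcam lay at no more than 1.90 and 3.98, both highest in knockout 1. Of the same marker list, Wap and Csn3 reached 3.81 and 2.72, also in knockout 1. Krt7 reached 20.2 in knockout 2, Cdh1 15.2 in wild type 1 and Krt19 13.4 in knockout 1. Skin genes with a mean under 10 normalised reads were raised in wild type 3 alone. There the keratin genes Krt5, Krt14, Krt15 and Krt1 were at 39.4, 24.7, 32.6 and 22.2, against at most 2.50 elsewhere. Lor was at 60.2 against at most 4.04, and Perp at 20.2 against at most 7.87. The 3 skin markers above that mean had mean log2 levels of 6.13 and 6.20 in wild type 1 and 3. Elsewhere these lay between 5.07 and 5.65. Normalised reads here are the deposited reads per transcript divided by a size factor per library. Each gene was represented by 1 transcript.

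Gps2 itself checks the labels only in part. The full-length transcript used was the one of highest mean (ENSMUST00000057884, 10 exons, GRCm38 chromosome 11, 69914192 to 69916591). A longer form of 11 exons differed little from it (299 normalised reads in wild type 1). The chosen transcript was at 301, 363, 221 and 260.4 normalised reads in wild type 1 to 4 and at 272, 312, 295 and 381 in knockout 1 to 4. The groups overlapped, with 286 ± 60.5 in wild type and 315 ± 46.8 in knockout (SD, n = 4), a log2 fold change of 0.15 ± 0.17 (SE, limma adjusted p = 0.88). A short transcript of 5 middle exons (69914845 to 69915880) stood at 45.5%, 41.7%, 45.4% and 47.3% of the full-length value in wild type 1 to 4 and at 29.7%, 33.8%, 35.4% and 32.4% in knockout 1 to 4. Every knockout replicate lay below every wild type replicate, by -12.1 points on average (exact permutation test, two-sided p = 0.0286, the smallest that 4 against 4 allows). This share was chosen with earlier results of these data known, so the p-value is not that of an independent check of the labels. A second short transcript, of 2 exons at the 3' end (69916041 to 69916556), was looked at after its values were seen. Its share was 40.5%, 43.1%, 37.8% and 38.7% in wild type 1 to 4 and 53.8%, 50.9%, 50.7% and 54.1% in knockout 1 to 4, again without overlap but in the opposite direction, 12.3 points higher on average. The transcripts overlap, so their reads are not independent, and the sources used here do not name the exons that the flox alleles flank. Knockout and wild type below are the genotypes of the labels.

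**Figure D1:**
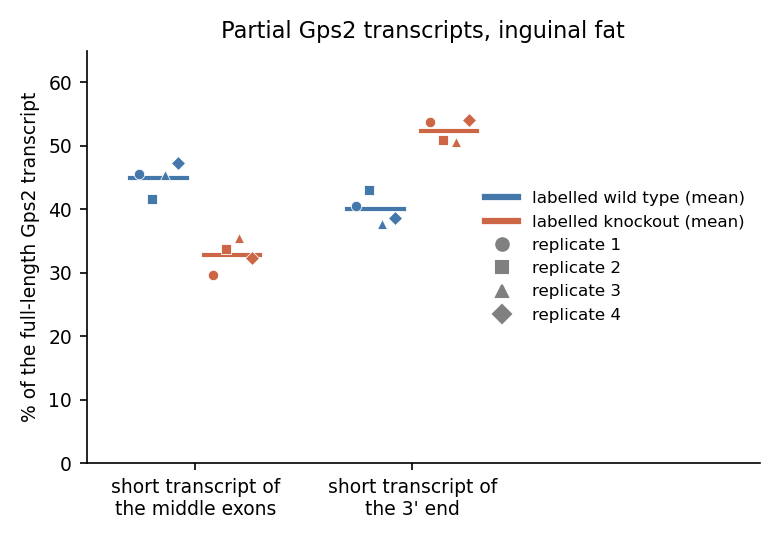
Short Gps2 transcripts as a percentage of the full-length Gps2 transcript (vertical axis) in 4 wild type and 4 knockout replicates; points are replicates and bars are means. The middle exons gave a share of 41.7% to 47.3% in wild type and 29.7% to 35.4% in knockout, and the 3' end a share that was higher in all 4 knockout replicates.

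The first question was which genes the loss of Gps2 in adipocytes moved in stimulated inguinal fat. Of 12381 genes with a mean of at least 10 normalised reads, 4 rose in knockout fat at a Benjamini-Hochberg adjusted p under 0.05 in limma (0.0323% of genes tested) and none fell. At an unadjusted p under 0.05 there were 695 higher genes (5.61%) and 419 lower genes (3.38%), and edgeR's quasi-likelihood test on recovered reads called 1 gene, Dock3, while DESeq2 called 174 higher and 92 lower. That split of the unadjusted calls depends on the scaling: under TMM scaling 616 were higher and 570 lower. Without overlap between the groups were 405 genes on the higher side (3.27%) and 273 on the lower side (2.20%).

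Dock3, on chromosome 9 (106892825 to 107231909, minus strand), codes for a guanine nucleotide exchange factor of Rac known chiefly from neurons. It was at 1.77, 1.37, 3.54 and 2.70 normalised reads in wild type 1 to 4 and at 44.3, 17.9, 53.8 and 35.0 in knockout 1 to 4. The groups lay far apart, 2.34 ± 0.971 against 37.7 ± 15.3 (SD, n = 4), with a log2 fold change of 3.48 ± 0.37 (limma adjusted p = 0.0311). All fold changes given are differences of log2(value + 1), which understate the change of a gene as low as Dock3 in wild type. Prss35 (chromosome 9, 86743649 to 86758443, plus strand), a gene of the trypsin-like serine protease family, was at 35.2, 9.26, 47.2 and 12.0 in wild type and at 314, 216, 526 and 305 in knockout. Its mean went from 25.9 ± 18.4 to 340.1 ± 131, a log2 fold change of 3.88 ± 0.48 (limma adjusted p = 0.0362).

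Tmem86a (chromosome 7, 47050601 to 47054777, plus strand) codes for a membrane enzyme that hydrolyses lysoplasmalogens, a class of ether phospholipids. It stood at 161, 169, 171 and 176 in wild type replicates and at 435, 321, 363 and 297 in knockout replicates. Thus the level rose from 169 ± 6.39 to 354 ± 60.8 (log2 fold change 1.05 ± 0.13, limma adjusted p = 0.0362). Fam69b (chromosome 2, 26628457 to 26636497, plus strand), a membrane protein of the endoplasmic reticulum related to protein kinases, was at 679, 657, 775 and 629 in wild type and at 1256, 1512, 1251 and 1521 in knockout. That was a rise from 685 ± 63.5 to 1385 ± 152 (log2 fold change 1.01 ± 0.12, limma adjusted p = 0.0362). Exons of other genes cover 31.8% of its transcript. Nothing in the sources used here says if strand was used in counting, so part of its reads may belong to those genes.

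All 4 genes were higher under every alternative in which they were tested, and the calls were close to the threshold. Leaving out 1 replicate of 8 at a time kept Dock3 past the threshold 3 times, Fam69b 2 times and Prss35 and Tmem86a once each. The number of genes called was 0 without knockout 3, knockout 4, wild type 1, wild type 2 or wild type 4, 1 without knockout 2, 5 without wild type 3 and 9 without knockout 1. It was also 0 without the 2 replicates high in muscle genes (wild type 2 and knockout 3), where the smallest adjusted p was 0.197 and 935 higher and 435 lower genes had an unadjusted p under 0.05.

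The promoters of 3 of these genes are shown, as those of the genes that rose. They run from 250 bases before to 50 after the start of transcription in RefSeq on GRCm38.p6; Fam69b has no entry. Capitals mark a match to the NRF1 element, searched on both strands. Dock3 is chr9:107231860-107232159 (minus), Prss35 chr9:86743383-86743682 (plus) and Tmem86a chr7:47050390-47050689 (plus).
Dock3: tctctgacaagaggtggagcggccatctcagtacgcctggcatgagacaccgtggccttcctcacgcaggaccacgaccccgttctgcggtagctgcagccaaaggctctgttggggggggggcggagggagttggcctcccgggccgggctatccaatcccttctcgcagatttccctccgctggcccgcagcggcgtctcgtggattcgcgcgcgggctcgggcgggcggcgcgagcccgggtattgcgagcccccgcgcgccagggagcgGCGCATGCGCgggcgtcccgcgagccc
Prss35: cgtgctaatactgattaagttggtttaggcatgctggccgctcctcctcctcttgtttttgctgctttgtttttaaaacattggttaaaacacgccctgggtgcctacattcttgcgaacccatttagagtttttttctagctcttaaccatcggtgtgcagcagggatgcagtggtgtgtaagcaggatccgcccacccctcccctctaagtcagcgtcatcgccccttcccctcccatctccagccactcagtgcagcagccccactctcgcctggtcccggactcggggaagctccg
Tmem86a: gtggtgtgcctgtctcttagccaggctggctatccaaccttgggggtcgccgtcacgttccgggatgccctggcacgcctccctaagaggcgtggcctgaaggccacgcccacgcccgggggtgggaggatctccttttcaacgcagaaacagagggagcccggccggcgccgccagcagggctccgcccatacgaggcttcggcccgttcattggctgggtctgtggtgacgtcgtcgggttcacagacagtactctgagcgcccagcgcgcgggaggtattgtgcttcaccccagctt
The NRF1 element stood in 2.41% of the promoters of the 9644 tested genes with an entry. The Prss35 and Tmem86a windows held none of the 6 motifs searched, which were the NRF1 element, the DR1 repeat, the cAMP element TGACGTCA, the estrogen-related receptor element TCAAGGTCA, the E-box TCACGTGA and the GABPA element CCGGAAGT.

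Below the threshold, the genes of smallest p were regulators and enzymes of several kinds, given here as values. Tead2, a DNA-binding partner of the Hippo pathway coactivators, was at 85.1, 88.5, 77.7 and 65.6 normalised reads in wild type and at 165, 145, 173 and 152 in knockout (log2 fold change 1.00 ± 0.13, limma adjusted p = 0.0529). Usp13, a deubiquitinase, had 17.6, 17.2, 18.7 and 19.9 against 52.3, 38.5, 56.6 and 41.6 (1.30 ± 0.18, adjusted p = 0.0557). St3gal6, a sialyltransferase, had 253 ± 58.8 against 559.7 ± 54.5 (1.17 ± 0.17, adjusted p = 0.0557). Its chosen transcript shares 38.9% of its exon length with other genes. Rgs16, which shortens G protein signals, had a log2 fold change of 1.97, the dynein docking gene Ttc25 (Odad4) one of 1.40, and Pnpla5, a lipase of the patatin-like family found on lipid droplets, one of 1.45, each with an adjusted p of 0.0771. In all 6 every knockout replicate lay above every wild type replicate.

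The lower genes of smallest p included 2 tied to signalling. Axin2, a feedback inhibitor and standard readout of Wnt signalling, was at 159.5, 107, 203 and 193 normalised reads in wild type and at 58.1, 71.3, 70.6 and 89.4 in knockout (log2 fold change -1.16 ± 0.21, limma adjusted p = 0.0915). Popdc2, a membrane protein that binds cAMP, was at 160.4, 152, 112 and 137 against 41.4, 65.5, 31.6 and 68.8 (-1.48 ± 0.25, adjusted p = 0.0786). The groups did not overlap in either. Trim16, an E3 ubiquitin ligase, had 147 ± 19.5 against 74.3 ± 7.48 (log2 fold change -0.97, adjusted p = 0.0557), and Pon1, the paraoxonase carried by high-density lipoprotein, had 131 ± 25.3 against 40.7 ± 18.6 (-1.75, adjusted p = 0.0771). Plce1, a phospholipase C, had a log2 fold change of -0.75, Tinag one of -1.06, Rab11fip4, an effector of endosome recycling, one of -1.65, Prss27 one of -0.89 and Dusp16, a MAP kinase phosphatase, one of -0.72, with adjusted p-values from 0.0786 to 0.103.

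**Figure D2:**
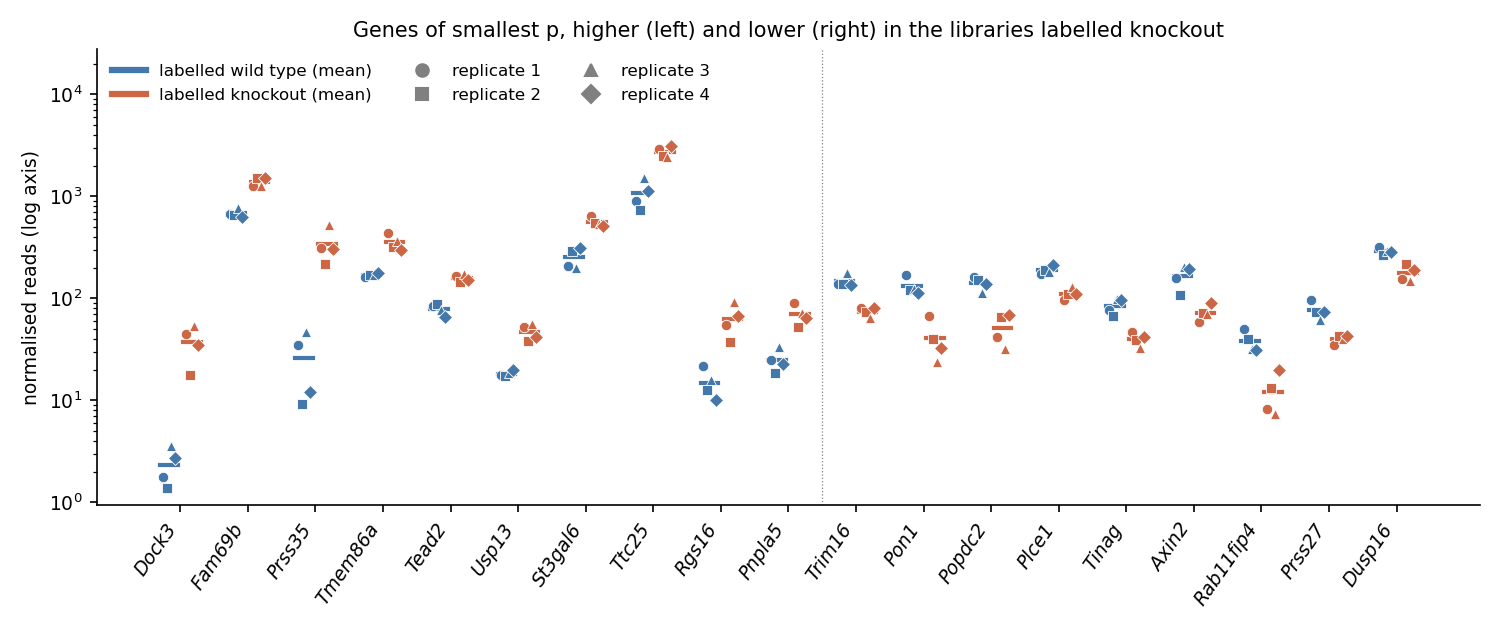
Normalised reads (log axis) of the 10 higher (left) and 9 lower (right) named genes of smallest p in 4 wild type and 4 knockout replicates; points are replicates and bars are means. Dock3, Fam69b, Prss35 and Tmem86a passed the threshold, and the 2 genotypes did not overlap in any of the genes plotted.

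The remaining comparisons take named groups of genes in turn. None of the 33 lists of pathway genes held a member that passed the test over all genes, so counts of direction and medians are descriptions. They are to be read beside all genes tested, of which 51.3% were higher (median 0.01). Without overlap, 3.27% of all genes were higher and 2.20% lower. In bulk tissue, fewer cells of a type and less RNA per cell cannot be told apart.

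Thermogenic and beige genes, which beta-adrenergic agonists are known to induce, were mostly lower in knockout fat, with a wide spread between replicates. Of 21 measured, 4 were higher and 17 lower (median log2 fold change -0.66). On each side 1 stood without overlap, against 3.27% of all genes higher and 2.20% lower. Ucp1, the uncoupling protein, was at 1978, 4036, 20678 and 40497 normalised reads in wild type 1 to 4 and at 5064, 5948, 1255 and 7787 in knockout 1 to 4. Wild type 3 and 4 were far above all others, wild type 1 was below 3 of the knockout replicates, and knockout 3 was the lowest (log2 fold change -1.13 ± 0.91, limma adjusted p = 0.805). Dio2, which makes active thyroid hormone inside the cell, was likewise highest in wild type 3 and 4 and lowest in knockout 3: 61.5, 75.2, 688 and 2143 against 237, 159.8, 24.2 and 214 (-1.27 ± 1.13, adjusted p = 0.833).

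Cidea, a droplet protein of brown and beige fat, was at 8783, 15805, 20652 and 27006 in wild type and at 11833, 14768, 5124 and 13922 in knockout (-0.66 ± 0.41, limma adjusted p = 0.706). Cpt1b, the muscle-type carnitine palmitoyltransferase that beige cells also use, was at 1525, 3201, 5364 and 7318 against 2062, 2348, 818 and 3014 (adjusted p = 0.611). Cox7a1, a cytochrome oxidase subunit of muscle and brown fat, was at 2265, 4149, 4677 and 5579 against 2242, 2780.3, 1261 and 3490.5 (-0.79 ± 0.34, adjusted p = 0.541). In each, wild type 3 and 4 were highest and knockout 3 lowest. Elovl3, a fatty acid elongase induced in cold-exposed brown fat, went differently, with 1034, 826, 6507 and 6783 in wild type and 13080.2 in knockout 1 against 1710.4, 1436 and 2132 in the other knockout replicates (0.22 ± 0.86, adjusted p = 0.972). The high replicates for Elovl3, wild type 3 and 4 and knockout 1, are those that the first principal component set apart.

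The list's median was -0.35 without wild type 4 and -0.42 without knockout 3. Without the muscle-rich replicates, wild type 2 and knockout 3, it was -0.44, with 5 of 21 higher. Of single genes, the Ucp1 log2 fold change was -0.41 without wild type 4 and -0.55 without knockout 3, and that of Dio2 was -0.31 and -0.52. The mean log2 level of the list was 8.97, 9.40, 10.2 and 10.7 in wild type 1 to 4 and 9.55, 9.48, 8.49 and 9.62 in knockout 1 to 4, so the genotypes overlapped. Ebf2 (-0.49) and Prdm16 (-0.38), transcription factors of the beige programme, Otop1 (-0.86), Cox8b (-0.47), Gk (-0.95), Slc27a2 (-0.99), Acot11 (-0.89), Fgf21 (-0.88), Tmem26 (-0.22), Pdk4 (-0.22) and the potassium channel gene Kcnk3 (-0.08) lay on the lower side and Plin5 (0.00) at no difference. Several of these turned on 1 replicate: Tmem26 was 0.29 and Cox8b -0.14 without knockout 3, while Pdk4 was 0.26, Kcnk3 0.03, Gk -0.37 and Slc27a2 -0.35 without wild type 4. Elovl3 was -0.51 without knockout 1, and Plin5 ranged from -0.30 without wild type 1 to 0.28 without knockout 3. The single member without overlap on the higher side was Epsti1 (0.47).

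The receptors of the pathway split. Adrb3, the beta-3 receptor through which fat cells sense catecholamines, was at 6163, 5264, 4494 and 6269.8 normalised reads in wild type and at 6029, 8236, 8322 and 8084 in knockout. Knockout 1 lay within the wild type range and the other 3 above it (log2 fold change 0.47 ± 0.17, limma adjusted p = 0.437). Adrb1, the beta-1 receptor, was at 46.1, 36.1, 88.5 and 106 in wild type and at 15.3, 29.3, 17.8 and 31.3 in knockout, without overlap (-1.45 ± 0.37, adjusted p = 0.20). Downstream, the cAMP phosphodiesterases Pde4a (-0.57), Pde8a (-0.37), Pde4b (0.50) and Pde3b (0.13) and the adenylyl cyclases Adcy3 (-0.67), Adcy9 (-0.42), Adcy6 (0.23) and Adcy5 (0.16) lay on both sides. Prkaca (0.22) and Prkacb (0.10), the catalytic subunits of protein kinase A, and the CREB gene Creb1 (-0.13) differed little. Of 28 measured members of this list, 13 were higher and 15 lower (median -0.06).

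**Figure D3:**
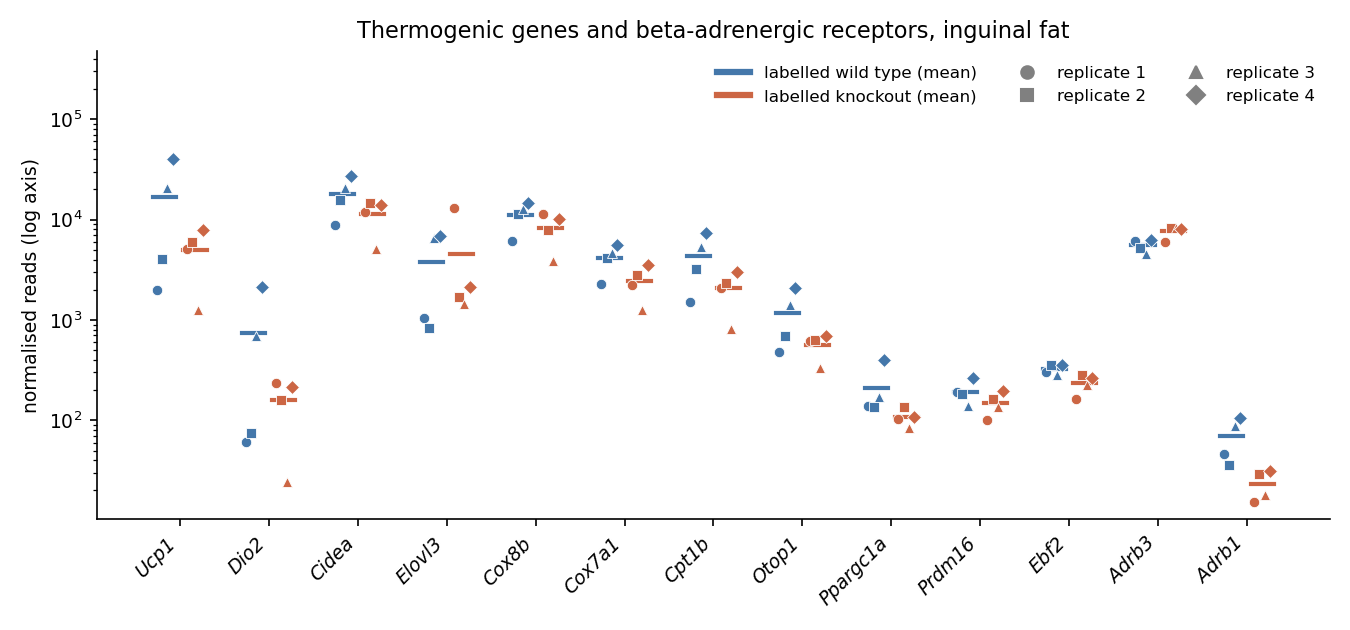
Normalised reads (log axis) of thermogenic genes and of Adrb3 and Adrb1 in 4 wild type and 4 knockout replicates; points are replicates, with a marker for each, and bars are means. Ucp1 and Dio2 were highest in wild type 3 and 4 and lowest in knockout 3, and Adrb1 and Ppargc1a were the plotted genes without overlap between the genotypes.

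Early targets of cAMP lay on both sides. Of 21 measured, 10 were higher and 11 lower (median -0.08, and 0.15 without wild type 2 and knockout 3). Angptl4, a secreted inhibitor of lipoprotein lipase, was at 4103, 5608, 2885 and 5023 normalised reads in wild type and at 7330.1, 8774, 7684 and 8318 in knockout, above every wild type replicate (log2 fold change 0.91 ± 0.21, limma adjusted p = 0.167). Irs2, an adaptor of the insulin receptor, was at 170.2, 238, 175 and 281 against 205, 686, 590.0 and 509.6, with knockout 1 inside the wild type range (1.10 ± 0.34, adjusted p = 0.323). Without knockout 1 the Irs2 value was 1.48. Nr4a2, an orphan nuclear receptor induced by cAMP, was lower without overlap (-0.71), while its relative Nr4a1, named after its values were seen, ran from 70.8 to 625 in wild type and from 43.1 to 223 in knockout.

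Ppargc1a, the coactivator PGC-1alpha that drives mitochondrial biogenesis downstream of cAMP, was at 139, 136, 172 and 401 normalised reads in wild type and at 103, 136, 83.0 and 107 in knockout. The groups met at 136 without crossing, and wild type 4 stood far above the rest (log2 fold change -0.84 ± 0.32, limma adjusted p = 0.451). Without wild type 4 the Ppargc1a value was -0.48. Its partner Esrrg, an estrogen-related receptor, had a log2 fold change of -0.94 and Ppargc1b, the sister coactivator, one of 0.34. The other regulators of the mitochondrial genome and its transcription stood near no difference: Nrf1 -0.04, Tfam -0.04, Tfb1m 0.01, Tfb2m -0.15, Polrmt -0.13, Polg 0.11, Twnk -0.07, Tefm -0.12, Esrra -0.08, Gabpb1 0.12 and Sirt1 -0.01. Gabpa (-0.30) and the mitochondrial deacetylase Sirt3 (-0.35) lay somewhat lower. The list of 25 had 7 higher and 18 lower members with a median of -0.04, and 13 of 25 were higher without wild type 2 and knockout 3.

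Genes of the respiratory chain leaned lower by small amounts, and this lean moved with single replicates of either genotype. Among complex I subunits 29 of 36 were lower (median -0.12), with Ndufs8 at -0.41, Ndufs1 at -0.34 and Ndufb2 at -0.24. Among subunits of complexes II to V 29 of 42 were lower (median -0.05), with Atp5g1 at 0.81, Cox7a1 at -0.79 and Atp5g3 at 0.30. Among mitochondrial ribosomal proteins 53 of 77 were lower (median -0.06), but the 3 of smallest p were higher: Mrps6 (0.62), Mrps7 (0.44) and Mrpl17 (0.30). In that list 1 member was higher without overlap and 0 were lower, against 3.27% and 2.20% of all genes. The mean log2 level of complex I was 11.5 to 12.0 in wild type and 11.2 in knockout 3 against 11.7 to 12.0 in the other knockout replicates. Without knockout 3 the 3 medians were 0.05, 0.08 and 0.08, without wild type 3 they were -0.07, -0.00 and -0.01, and without wild type 4 they were -0.04, -0.01 and -0.03. Without wild type 2 and knockout 3 together 20 of 36 complex I genes, 29 of 42 genes of complexes II to V and 49 of 77 ribosomal protein genes were higher.

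The 7 measured genes of the mitochondrial genome included 6 lower ones (median -0.32, and -0.11 without wild type 4), with mt-Nd5 at -0.54. Fatty acid oxidation genes had 22 of 27 members lower (median -0.21, and -0.08 without wild type 4) and genes of pyruvate oxidation and the citric acid cycle 21 of 28 (median -0.22, and -0.04 without wild type 4). Suclg2, a subunit of succinyl-CoA ligase, was at 1197, 1244, 1165 and 1322 in wild type and at 1041, 994, 823 and 864 in knockout, without overlap (log2 fold change -0.41 ± 0.12, limma adjusted p = 0.273). In branched-chain amino acid breakdown 15 of 21 members were lower (median -0.11) and in mitochondrial protein import 16 of 30 (median -0.00).

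Lipid synthesis genes leaned the other way. Of 24 measured genes of fatty acid and triglyceride synthesis 20 were higher in knockout fat (median log2 fold change 0.37) and 9 had every knockout replicate above every wild type replicate, against 3.27% of all genes. Mogat2, which builds diacylglycerol from monoacylglycerol, was at 223, 78.8, 209 and 97.6 normalised reads in wild type and at 1008, 428, 979 and 614 in knockout (2.37 ± 0.38, limma adjusted p = 0.0771). Fads2, the delta-6 desaturase of polyunsaturated fatty acids, was at 318, 242, 332 and 179.8 against 793, 571, 733 and 475 (1.27 ± 0.22, adjusted p = 0.0806). Dgat2, which adds the last acyl chain to triglyceride, was at 37017, 30119.8, 39533 and 39586 against 65196, 51159, 55649.8 and 49254 (0.60 ± 0.18, adjusted p = 0.305). The lowest knockout replicate lay above the highest wild type replicate in each.

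Elovl6 (0.61) and Dgat1 (0.44) also had no overlap and were named after their values were seen, as were the genes that did not follow: the fatty acid synthase gene Fasn was at 415837 ± 41335 in wild type and 370773 ± 92549 in knockout (-0.20 ± 0.24), Scd1 had a log2 fold change of -0.02 and Acly one of 0.02. The mean log2 level of the list was 13.9, 13.6, 13.9 and 13.6 in wild type and 14.2, 14.2, 14.3 and 14.1 in knockout. Adipocyte markers moved beside it: 11 of 12 were higher (median 0.40), and their mean log2 level was 14.5 to 14.7 in wild type and 14.8 to 15.3 in knockout. Their part in the lipid result was not tested.

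Cholesterol synthesis genes showed a like pattern, with 21 of 24 higher (median 0.46). Of these 7 had no overlap, against 3.27% of all genes, and no member was lower without overlap. Cyp51, the lanosterol demethylase, was at 2982, 1589, 4197 and 1768 normalised reads in wild type and at 22286, 8352, 9646 and 8445 in knockout. The lowest knockout value, 8352, lay well above the highest of wild type, 4197, and knockout 1 stood far above the other 3 (2.19 ± 0.38, limma adjusted p = 0.0806). Fdps, farnesyl diphosphate synthase, was at 1907, 1618, 2976 and 1969.7 against 5594, 3708, 3872 and 3507 (0.99 ± 0.22, adjusted p = 0.147). Its transcript shares 81.3% of its exon length with other genes. Lss, which closes the lanosterol rings, was at 1900.4, 1391, 2283 and 1405 against 3351, 3014, 4031 and 2544 (0.90 ± 0.20, adjusted p = 0.159).

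Pmvk (0.66), named after its values were seen, had no overlap either. A pair of regulators of the pathway, looked up in the same way, did not share the lean: Insig1, which holds the sterol sensor in the endoplasmic reticulum, had a log2 fold change of 0.00 and the transcription factor gene Srebf2 one of -0.29. The mean log2 level of the list was 9.62 to 10.4 in wild type and 10.2 to 10.8 in knockout, and wild type 3 alone of its group reached the knockout range. Without knockout 1 the list's median was 0.28. Without wild type 2 and knockout 3, 20 of 24 genes were higher in this list and 20 of 24 in the fatty acid and triglyceride list. DESeq2 called 5 members of this list and 4 of the fatty acid and triglyceride list higher and none lower. Among all 12381 genes it called 174 higher and 92 lower. The quasi-likelihood test of edgeR called no member of either list. On simulated data 14.2% of DESeq2's calls were false, against 4.74% for limma at the same threshold.

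**Figure D4:**
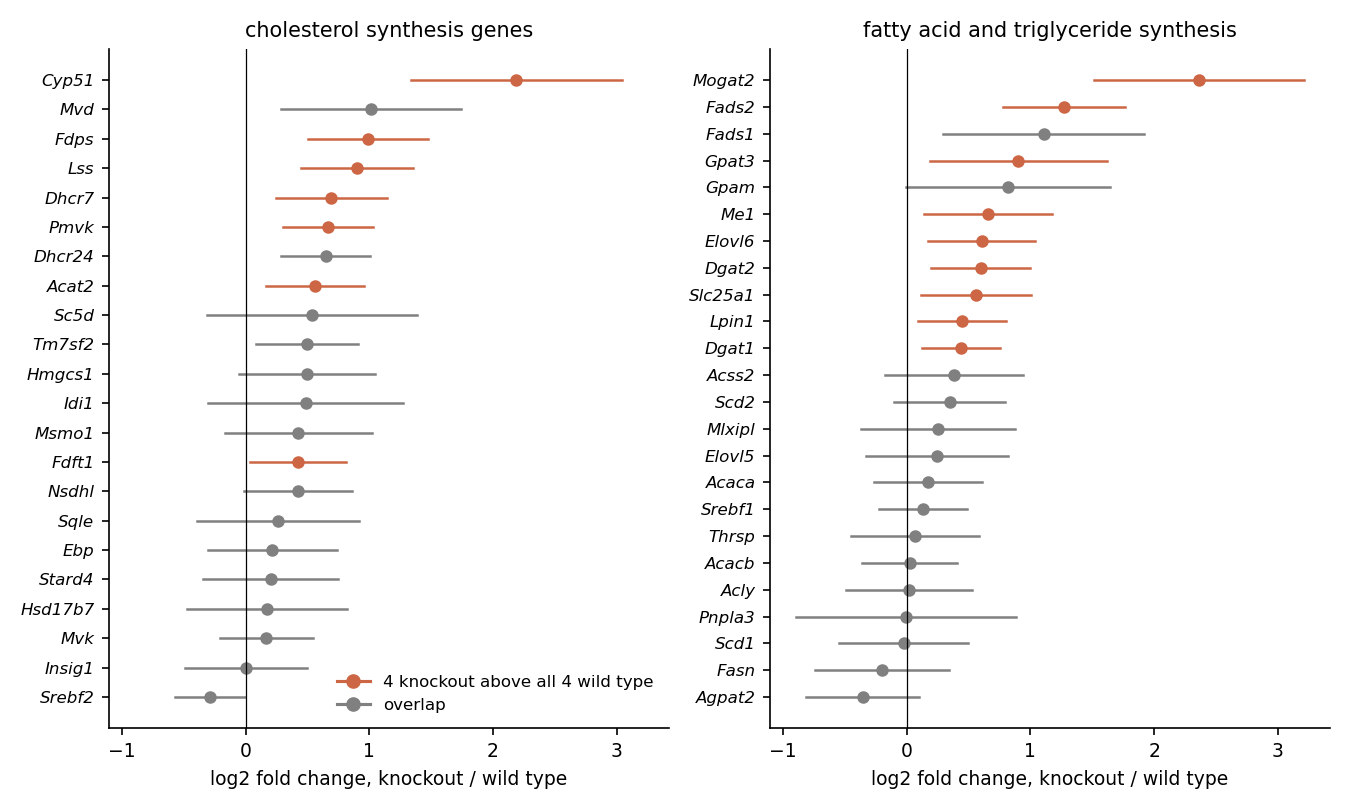
Log2 fold change of knockout over wild type for 22 of the 24 cholesterol synthesis genes (left) and 24 fatty acid and triglyceride synthesis genes (right), with unadjusted 95% limma intervals; coloured genes have all 4 knockout replicates above all 4 wild type replicates. Cyp51 (2.19) and Mogat2 (2.37) stand highest, and Srebf2, Fasn and Scd1 lie below 0.

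Promoters set the lipid and thermogenic genes side by side, since Cyp51 stood out in 1 list and Dio2 is a textbook target of cAMP in the other. Cyp51 is chr5:4104648-4104947 (minus) and Dio2 chr12:90738989-90739288 (minus), both from RefSeq on GRCm38.p6, and capitals mark a match to the cAMP element TGACGTCA.
Cyp51: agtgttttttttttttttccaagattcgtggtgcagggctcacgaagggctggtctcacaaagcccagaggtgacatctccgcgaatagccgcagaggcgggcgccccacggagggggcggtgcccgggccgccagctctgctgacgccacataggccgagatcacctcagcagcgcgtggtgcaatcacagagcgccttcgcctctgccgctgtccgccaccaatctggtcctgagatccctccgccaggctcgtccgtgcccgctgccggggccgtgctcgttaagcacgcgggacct
Dio2: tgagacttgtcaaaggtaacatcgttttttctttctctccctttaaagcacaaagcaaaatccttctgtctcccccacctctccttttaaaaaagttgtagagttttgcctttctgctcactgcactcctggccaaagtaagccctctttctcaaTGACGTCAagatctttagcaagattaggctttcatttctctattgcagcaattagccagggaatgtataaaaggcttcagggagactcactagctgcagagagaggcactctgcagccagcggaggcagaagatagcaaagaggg
The element stood at -95 from the Dio2 start. It was found in 3.45% of promoters of all tested genes with an entry, in 1 of 15 of the thermogenic list, in 3 of 17 of the early cAMP targets and in 2 of 18 of the fatty acid and triglyceride list (Elovl5 and Pnpla3). None of the 6 motifs was found in the 17 cholesterol gene promoters with an entry, and no sterol-responsive element was among those searched. The GABPA element was in 6 of 23 promoters of biogenesis regulators and in 9.05% overall. A match describes letters only.

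Lipid droplet and adipocyte genes leaned higher with the synthesis genes. In the list of lipolysis and droplet genes 14 of 18 were higher (median 0.21), 4 of them without overlap, against 3.27% of all genes. Plin2, a coat protein of droplets, was at 29217, 20073, 38439.7 and 29629 normalised reads in wild type and at 75788, 51863, 49541 and 48918 in knockout (log2 fold change 0.96 ± 0.24, limma adjusted p = 0.20). Aqp7, the glycerol channel, had a log2 fold change of 0.37 with overlap and Cidec, a droplet fusion protein, one of 0.84 without. Of 23 adipocyte identity genes 19 were higher (median 0.24). Cebpa, a master regulator of fat cells, was at 6735, 7133, 4616 and 7042 against 11292, 9876, 8753 and 9229 (0.63 ± 0.18, adjusted p = 0.275), and Klf15, a factor of adipocyte and amino acid metabolism, was at 940.2 ± 123 against 1439.8 ± 360.1 (0.59 ± 0.18, adjusted p = 0.30). Neither overlapped. Resistin, Retn, had a log2 fold change of 0.72 with overlap.

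Of 24 insulin signalling genes 17 were higher (median 0.09). Eif4ebp1, the translation repressor 4E-BP1, was at 3231, 3993, 2550.5 and 2473 in wild type and at 5690.2, 4662, 4246 and 4824 in knockout (log2 fold change 0.68 ± 0.18, limma adjusted p = 0.232). Grb10, an inhibitor of insulin signals, was higher without overlap (0.35). Targets of the liver X receptors, which sense oxysterols and are bound by the corepressor, had 9 of 12 members higher (median 0.14). Arl4c, a small GTPase among those targets, had 35.4 ± 5.03 against 61.0 ± 6.61 (0.77 ± 0.16, adjusted p = 0.133), Mylip, a ubiquitin ligase, 0.35, and Apoe 0.74 with overlap.

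The partners of GPS2 in the corepressor complex and in ubiquitin signalling balanced at 12 higher and 11 lower (median 0.00). Of these, 3 were higher without overlap and 2 lower without overlap, against 3.27% and 2.20% of all genes. Coro2a, the coronin-like subunit of the complex, was at 34.9, 67.5, 39.9 and 38.9 normalised reads in wild type and at 87.4, 97.5, 76.9 and 99.1 in knockout (log2 fold change 1.02 ± 0.21, limma adjusted p = 0.119). Rnf8, an E3 ligase that works with UBC13, was at 215, 256, 195 and 224 against 378, 297, 292 and 306 (0.51 ± 0.13, adjusted p = 0.20). Rxra, the retinoid X receptor, was higher without overlap (0.37). Nuclear receptors and coactivators as a whole had 13 of 33 higher (median -0.08). In this list 2 members were higher without overlap and 3 lower, against 3.27% and 2.20% of all genes. Esr1, the estrogen receptor, was at 401 ± 69.3 against 592 ± 34.2 (0.57 ± 0.13, limma adjusted p = 0.173), while Rarb (-0.69) and Thrb (-0.37) lay lower.

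Among imprinted growth genes 9 of 12 were higher (median 0.30), 4 of them without overlap, against 3.27% of all genes. The median was 0.19 without knockout 3 and 0.20 without knockout 4, and 7 of 12 were higher without wild type 2 and knockout 3. Zim1, a zinc finger gene of the Peg3 domain, was at 12.6, 21.7, 12.1 and 21.3 in wild type and at 43.9, 44.5, 30.7 and 48.9 in knockout (log2 fold change 1.29 ± 0.25, limma adjusted p = 0.105). Cdkn1c, the cell cycle inhibitor p57, was at 199, 169, 105 and 101 against 218, 237, 360.4 and 343 (1.03 ± 0.25, adjusted p = 0.194). Aldoc, an aldolase in the glycolysis and hypoxia list, was at 23.7, 24.6, 11.9 and 7.97 against 50.2, 40.1, 67.6 and 49.5 (1.66 ± 0.34, adjusted p = 0.119), while that list had 14 of 30 higher (median -0.02). Cell cycle genes had 23 of 24 members higher (median 0.31), yet none without overlap, with Cdk1 at 0.45, Ube2c at 0.51 and Aurkb at 0.47.

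Inflammatory and NF-kB genes, which the corepressor and UBC13 both govern, were 11 higher and 9 lower of 20 (median 0.04). Vcam1, an adhesion molecule, was the 1 without overlap (0.57). Interferon response genes were 12 higher and 14 lower (median -0.03) and none lacked overlap. The NF-kB median was -0.06 without knockout 4, -0.03 without wild type 3 and 0.21 without wild type 2, and the interferon median was 0.11 without knockout 1. Stress genes, immediate early genes and clock genes had medians between -0.17 and 0.06, with Bhlhe40, a clock repressor, lower without overlap (-0.58). Matrix genes had 20 of 33 higher (median 0.07), with Lox at -0.34, Col6a3 at -0.32 and Tnc at 0.74. No matrix gene was higher without overlap and 1 was lower, against 3.27% and 2.20% of all genes. Lysosomal genes had 21 of 26 higher (median 0.09), antioxidant genes 18 of 27 (median 0.15) and Wnt and BMP genes 9 of 22 (median -0.15). Axin2 was the only one of these last without overlap. These small medians moved with single replicates: without knockout 1 they were -0.01 for clock, -0.01 for lysosomal, 0.07 for antioxidant and -0.04 for matrix genes. The matrix median was -0.08 without wild type 4, and that of the Wnt and BMP genes was 0.03 without wild type 1, -0.02 without wild type 3 and -0.04 without knockout 2.

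Markers of other cells in the tissue gave these values. T and NK cell markers were higher in 12 of 12 measured (median 0.57), with mean log2 levels of 3.55 to 4.42 in wild type and 4.09 to 5.02 in knockout. Macrophage markers were higher in 15 of 20 (median 0.21) and endothelial markers in 13 of 18 (median 0.14). Mast cell markers were lower in 6 of 6 (median -0.19), with mean log2 levels of 5.74 to 6.61 in wild type and 5.71 to 6.56 in knockout. Markers of fat progenitors and stroma were lower in 11 of 17 (median -0.08). Brown and beige adipocyte markers were lower in 8 of 9 (median -0.79), with mean log2 levels of 9.71, 10.2, 11.3 and 12.0 in wild type and 10.5, 10.3, 9.09 and 10.5 in knockout. Their part in the thermogenic values above was not tested. Cspg4, the pericyte proteoglycan NG2, named after its values were seen, was at 1795, 1719.7, 1438 and 1427 in wild type and at 2514, 2671, 3728 and 3242 in knockout (log2 fold change 0.92 ± 0.16, limma adjusted p = 0.0806).

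The last question was whether the effect of the genotype in stimulated inguinal fat differed from that in intra-abdominal fat. The series holds 32 samples of intra-abdominal fat on a high fat diet at 11 weeks (4 knockout and 4 wild type replicates) and 24 on chow at 19 weeks (6 replicates), all under the same strain entry. Depot, age, diet and stimulation differ together and cannot be told apart, and the tables were normalised separately. The effect of genotype differed between the inguinal and the high fat diet fat for 46 of 12082 genes (limma interaction, adjusted p under 0.05, 0.381%). In 41 of them the inguinal log2 fold change was the higher and in 5 the lower. Under TMM scaling there were 26 and 12.

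Synpo2, an actin-binding protein of smooth muscle, had the smallest p. It was at 111 ± 27.9 and 99.9 ± 21.3 normalised reads in inguinal wild type and knockout fat, and at 2972, 2699, 1967 and 4183 against 337, 386, 343 and 382 in high fat diet fat. The log2 fold change was thus -0.14 against -2.98, a difference of 2.83 ± 0.30 (limma interaction adjusted p = 0.000776). Kcnk3, a potassium channel found in beige fat, likewise had -0.08 against -2.58, and Sox18, a transcription factor of endothelium, 0.40 against -1.33. Hey1, a Notch target, had 0.09 against -1.14 and Gcnt2, a glycan-branching enzyme, 0.22 against -1.05. All 5 fell in high fat diet fat at a limma adjusted p under 0.05, and none passed in inguinal fat.

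Tmem86a was among the 4 genes that rose in inguinal fat, and its effect differed in high fat diet fat, where wild type was at 717, 591, 894 and 973 and knockout at 588, 561, 649 and 569 (log2 fold change 1.05 against -0.40, difference 1.44 ± 0.20, limma interaction adjusted p = 0.0059). Ttll7, a tubulin glutamylase, was at 35.2 ± 6.34 against 68.4 ± 12.6 in inguinal fat and at 85.0 ± 8.07 against 48.3 ± 9.69 in high fat diet fat (0.94 against -0.82), and Myrip, a linker of Rab27 vesicles to myosin, had 0.77 against -0.72. Both ran in opposite directions without overlap in either fat. Usp13 had 1.30 against -0.04 (interaction adjusted p = 0.0188). Fam69b had 1.01 against 0.75, which did not pass (interaction adjusted p = 0.546), while Dock3 and Prss35 were under the filter in high fat diet fat and were not tested there.

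In the opposite direction stood Tnfaip3, the ubiquitin-editing inhibitor of NF-kB, with 115 ± 20.2 against 98.0 ± 8.65 in inguinal fat and 183 ± 32.6 against 377 ± 20.5 in high fat diet fat (log2 fold change -0.22 against 1.06, difference -1.27 ± 0.20, limma interaction adjusted p = 0.0174). Myc, the growth regulator, had -0.04 against 1.17, Gsta4, which detoxifies lipid peroxidation products, -0.10 against 1.18, and Daam1, a formin that builds actin filaments, -0.35 against 0.46. Insig1, Pparg, Rgs7 and Axin2 came next by p, with an interaction adjusted p of 0.065 each. The cholesterol and the fatty acid and triglyceride lists held no gene that passed the interaction test, with medians of 0.46 and 0.37 in inguinal fat and 0.13 and 0.22 in high fat diet fat. On chow the medians of both lists were 1.08, with no member past the interaction test there.

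The interaction count moved with single replicates. Of inguinal replicates, it was 111 without knockout 1, 28 without knockout 2, 21 without knockout 3, 16 without knockout 4, 22 without wild type 3 and 20 without wild type 4. Of high fat diet replicates, it was 11, 20, 21 and 7 without knockout 1, 2, 3 and 4, 94 without wild type 1 and 17 without wild type 4.

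**Figure D5:**
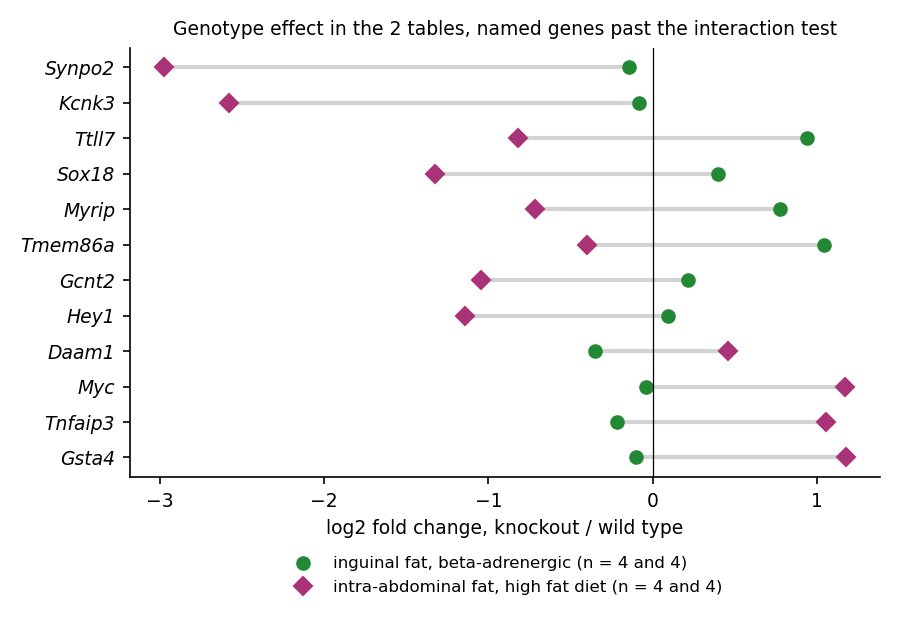
Log2 fold change of knockout over wild type (horizontal axis), with 4 against 4 replicates in each fat. Circles are stimulated inguinal fat and diamonds intra-abdominal fat on a high fat diet. Plotted are the 12 genes past the interaction test that were named by the rule for interaction genes (mean of at least 50 in both fats). Usp13, with a lower mean, is not plotted. Synpo2 and Kcnk3 lie at -2.98 and -2.58 in high fat diet fat and near 0 in inguinal fat, and Tmem86a, Ttll7 and Myrip lie on opposite sides of 0.

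Against intra-abdominal fat on chow the effect of genotype differed for 0 of 12203 genes (0%) by limma interaction at an adjusted p under 0.05, with 1148 at an unadjusted p under 0.05. The smallest adjusted p was that of Slc2a5, the fructose transporter, at 0.205 (log2 fold change -0.72 in inguinal fat against 4.77 on chow, where wild type averaged 6.04 normalised reads). The count was 371 without chow knockout 3, 10 without chow wild type 2, 2 without chow wild type 3 and 1 without inguinal knockout 2. Chow knockout 1 and 2 were nearly alike, so without chow knockout 3 the knockout group may amount to 1 sample. The count of 371 is therefore not to be relied on.

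Genes that the genotype moved on the high fat diet were then read in inguinal fat, whose samples are other samples. On the high fat diet 136 genes rose (1.06% of 12890) and 345 fell (2.68%) at a limma adjusted p under 0.05. Of the 130 that rose there and were measured in inguinal fat, 107 (82.3%) were higher here, 26 without overlap and none lower without overlap (median 0.29). Of all genes tested, 3.27% were higher and 2.20% lower without overlap. Of the 331 that fell, 205 were lower here, 18 of them without overlap, and 38.1% were higher, 4 of them without overlap (median -0.09). Mogat2 (1.63 on the high fat diet and 2.37 here), Pnpla5 (2.50 and 1.45), St3gal6 (0.97 and 1.17) and the prolactin receptor gene Prlr (2.02 and 1.42) were on the higher side in both. Adrb1 (-1.04 and -1.45), Popdc2 (-1.19 and -1.48) and Plce1 (-0.75 and -0.75) were on the lower side in both. These 7 were named after their values were seen. Of the genes called in inguinal fat, Fam69b was the 1 also called on the high fat diet.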

How the data were processed

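The 32 inguinal libraries were stranded TruSeq mRNA libraries, per the labels. The deposited signal values are reads per Ensembl transcript divided by a size factor per library, per the values themselves: all values were whole multiples of 1 read's worth (100% within 0.01 reads), and reads were taken as recovered from 31 of 32 libraries. Tools listed in the submitters' processing notes, without roles, are HTSeq 0.5.3, DESeq 1.8.3, STAR 2.4.0k, bcl2fastq 2.17 and SAMtools, with the build GRCm38.p4. The sources used here give no sign of whether counting used strand.

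Transcripts were matched to 18629 genes of GENCODE M21, and 504 of 76846 transcripts, holding 0.277% of the values, matched none. Each gene took the transcript of its own type with the highest mean, since overlapping transcripts share reads. Repeat libraries were averaged. Genes with a mean of at least 10 were tested with limma 3.58.1 (trend and robust moderation, R 4.3.3) on log2(value + 1), with Benjamini-Hochberg adjustment over all 12381 genes. Effects in 2 fats were compared by the interaction in 1 limma fit. Shares of Gps2 transcripts were tested by exact permutation. edgeR 4.0.16 and DESeq2 1.42.0 on recovered reads were alternatives, beside other scaling, filters, pseudocounts, single repeat libraries, summed transcripts and leaving out replicates. The scripts were checked on simulated data with 200 changed genes. There 4.74% of limma's calls, 2.66% of edgeR's and 14.2% of DESeq2's were false.

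Members and lists were chosen with earlier results of these data known. Named genes are Gps2, the 10 of smallest p in each direction (fewer than 5 passed in either), the 3 of smallest p in each list, all thermogenic, biogenesis and abundant adrenergic members, and up to 8 interaction genes per direction with a mean of at least 50. Predicted genes, pseudogenes and immunoglobulin and T cell receptor genes were not named, and a few genes that the rule names are not reported here. The tables of isolated adipocytes and of the other intra-abdominal samples were not used here.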

Additional observations from a re-analysis of the deposited data

Results flagged for a closer look

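Among 144 groups of 4 replicates checked, 12 had 1 replicate apart from the other 3 (by Dixon's test of the gap to the nearest of the others, as a share of the group's range), and chance gives about 1 in 20 groups. Knockout 3 was low in the mean log2 level of thermogenic genes (8.49, others 9.48 to 9.62), of biogenesis regulators (7.32, others 7.59 to 7.63) and of brown and beige markers (9.09, others 10.3 to 10.5), and high in skeletal muscle genes (7.67, others 2.58 to 3.21). Knockout 1 was high in adipocyte identity genes (13.1, others 12.7 to 12.8) and adipocyte markers (15.3, others 14.8 to 14.9) and low in insulin signalling genes (9.44, others 9.60 to 9.62) and smooth muscle markers (8.85, others 9.25 to 9.30). Knockout 4 was high in mast cell markers (6.56, others 5.71 to 5.85). In wild type fat, replicate 3 was high in antioxidant genes (10.9, others 10.8) and in Trim16 (log2 level 7.47, others 7.10 to 7.12), and replicate 2 was low in the pair of measured neutrophil and eosinophil markers (4.06, others 4.31 to 4.35).

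The effect of genotype in inguinal fat differed from that in high fat diet fat for 46 genes by the limma interaction test. The 12 of them named by the rule for interaction genes (mean of at least 50 in both fats) are given here. The difference in log2 fold change, inguinal minus high fat diet, was 2.83 for Synpo2, 2.50 for Kcnk3, 1.76 for Ttll7, 1.73 for Sox18, 1.49 for Myrip, 1.44 for Tmem86a, 1.26 for Gcnt2 and 1.24 for Hey1. It was -1.28 for Gsta4, -1.27 for Tnfaip3, -1.21 for Myc and -0.81 for Daam1.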

How the results depend on the processing

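The count of 4 genes called in inguinal fat was 4 with a pseudocount of 0.5 or 5, 3 with a minimum mean of 50, 2 without the filter and 2 without trend and robust moderation. It was 1 under TMM scaling, 1 with edgeR and 266 with DESeq2. It was 1, 0, 9 and 8 from repeat library 1, 2, 3 or 4 alone (1073 genes at an unadjusted p under 0.05 where it was 0), 7 with transcripts summed per gene, and 0 without wild type 2 and knockout 3, an alternative chosen after seeing the data. Leaving out 1 replicate gave 0 to 9 calls. Where that gave 0, 821 to 1263 genes had an unadjusted p under 0.05. The interaction count against high fat diet fat ran from 7 to 111 on leaving out 1 replicate, and that against chow from 0 to 371. The 371 came from the fit whose chow knockout group was the nearly alike replicates 1 and 2. The cause of these ranges was not tested. Replicate numbers are shared between genotypes, but same-numbered replicates did not deviate together (correlations of -0.213, 0.289, -0.178 and -0.041), so they were not treated as pairs. A fit with the replicate block called 4 genes, 2 of them among the 4 reported. The difference in the Gps2 short share was -11.1 to -13.2 points on leaving out 1 replicate. Over all alternatives for the 129 named genes, the call was the same 2833 times, gained 56 times and lost 50 times, and 5 folds and 2 list medians moved beyond their spread. No called value changed sign, while folds near 0, such as those of Elovl3, Pdk4, Tmem26 and Plin5, did. At totals of 42707444 reads or more, Dock3 still had under 4 normalised reads in each wild type replicate, which leaves its fold imprecise.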
